A study of Mus musculus with 12 samples.

Results

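In macrophages labelled littermate control and not yet given lipopolysaccharide (LPS), 265 regions carried a dense RelA signal, out of 5805 RelA hotspots, or 4.57%. The 5805 are those left of 5859 in the list after 54 that overlapped input DNA were removed. Hotspots are stretches of the genome enriched for sequence tags. The 265 were chosen as hotspots of the littermate RelA 0 h library whose highest tag density (MaxD in the files, unit not stated) was 10 or more and which overlapped no hotspot of wild-type input DNA by 1 bp or more. Of the 313 hotspots at or above that density, 48 overlapped input and were left out. Density, mean density and z score at littermate 0 h therefore describe the choice and are given with no test. Most else below comes from libraries that the choice did not use, or from the position and width of the regions. Density at littermate 0 h returns where regions are ordered, grouped, correlated or described by it. Distance to input uses the same input list as the choice.

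RelA is a DNA-binding subunit of NF-kB, which in resting cells is held mostly in the cytoplasm by inhibitor proteins of the IkB family. LPS, which is shed from the cell wall of Gram-negative bacteria, acts through Toll-like receptors to have those inhibitors degraded, after which NF-kB enters the nucleus and binds enhancers and promoters of inflammatory genes. Some NF-kB shuttles through the nucleus before any stimulus. Ikaros, encoded by Ikzf1, is a zinc finger protein known for its part in lymphocyte development and for its association with chromatin remodelling complexes.

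All cells were bone-marrow-derived macrophages of the C57BL/6J strain, which are primary cells grown from bone marrow. The littermate control cells had RelA libraries at 0, 3 and 8 h of LPS, and how their genotype differs from that labelled wild type is not spelled out. Wild-type cells had RelA libraries and Ikaros libraries at 0, 3 and 8 h of LPS, and an input library without treatment. Chromatin was cross-linked and precipitated with a rabbit polyclonal antibody against RelA or a goat polyclonal antibody against Ikaros. No Ikaros library of littermate cells was analysed here, so every Ikaros value below is from wild-type cells.

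Each group held 1 library, so there was no spread between replicates and no p-value between conditions is given. Intervals in parentheses are exact Clopper-Pearson 95% intervals for a share of regions. They cover counting error alone, and neighbouring regions are not independent. A denser signal can mean more cells with RelA at a site or more RelA per cell, and these cannot be told apart. The lists after input removal held 9999 and 5231 hotspots for littermate RelA at 3 and 8 h, 47, 4972 and 1878 for wild-type RelA at 0, 3 and 8 h, and 853, 7109 and 13796 for Ikaros. They were not cut alike. Hotspots of MaxD 10 or more made up 4.57% of the littermate list at 0 h, 20.9% at 3 h and 19.6% at 8 h, but between 78.7% and 99.2% of the wild-type RelA and Ikaros lists. File names of 6 libraries carry another time than their labels, among them that of wild-type RelA at 0 h, and the labels were used.

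The dense regions before LPS were wider and far denser than the rest of their list. Their MaxD had a median of 25.4 and reached 123, against a median of 4.56 for the 5540 less dense hotspots, as the choice requires. Width was not part of the choice. The dense regions had a median width of 448 bp (lowest 251, highest 885), against 257 bp for the less dense hotspots (lowest 251, highest 1001). The narrowest width of 251 bp was shared by 7.92% (4.97 to 11.9) of dense regions and by 46.1% (44.8 to 47.4) of the others. The 5 regions just inside the limit had MaxD between 10.0 and 10.2, and the 5 just outside all had 9.63. None of the 5 inside was in a wild-type RelA or Ikaros list. Of the 5 outside, 1 was in an Ikaros list, on chromosome 3 at 38928698 to 38928973.

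After LPS most of the dense regions were listed for RelA again, in littermate cells as in wild-type cells. Of the 265, 173 were in the littermate list at 3 h, 65.3% (59.2 to 71.0), where 13.7% of all littermate 0 h hotspots were. At 8 h 125 were, 47.2% (41.0 to 53.4), against 9.46% of all. In wild-type cells 175 were listed at 3 h, 66.0% (60.0 to 71.7), against 3.07% of all littermate 0 h hotspots, and 131 at 8 h, 49.4% (43.3 to 55.6), against 2.29%. Before LPS the wild-type list held 28 of them, 10.6% (7.14 to 14.9), against 0.500% of all. For the less dense hotspots alone the shares were 11.2% (10.4 to 12.1) in littermate RelA at 3 h, 7.65% (6.97 to 8.39) at 8 h, and between 0.0181% and 0.0542% in the wild-type RelA lists. The dense and less dense sets are split by the density limit itself. In the wild-type RelA lists, between 78.7% and 99.2% of hotspots had MaxD 10 or more. The intervals are therefore no test of a difference between the sets.

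**Figure D1:**
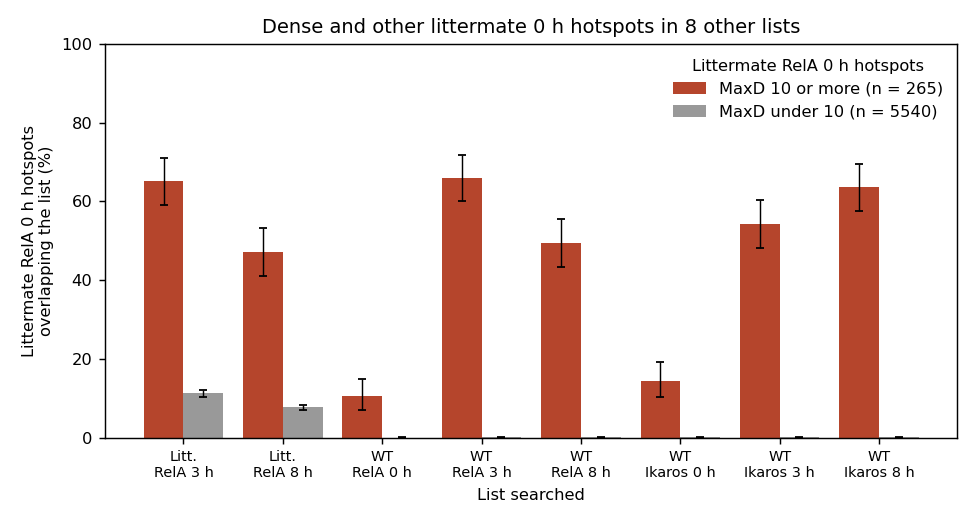
Bars give the percentage of littermate RelA 0 h hotspots that overlapped each of 8 other lists by 1 bp or more, for the 265 of MaxD 10 or more (red) and the 5540 under 10 (grey), with exact 95% intervals. Red bars lie between 10.6% and 66.0%, and the grey bars are at most 11.2%.

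The wild-type 0 h list was short. Of its 83 deposited hotspots, 36 overlapped input and were taken out. In littermate RelA at 0 h 54 of 5859 did. Of the 47 wild-type hotspots left, 28, 59.6%, lay on dense littermate regions. A further 1 lay on a less dense littermate hotspot and 18 on none. The shares after LPS depend on the length of the list searched. With each list held to its 1000 hotspots of highest z score, 24.5% of the dense regions were in the littermate list at 3 h and 30.9% at 8 h, the opposite order to the full lists. With the same number of regions chosen by z score in place of MaxD, 34.0% were in littermate RelA at 3 h and 15.5% in wild-type RelA at 3 h.

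Followed region by region, RelA in littermate cells was listed at both 3 and 8 h on 118 dense regions, at 3 h alone on 55, at 8 h alone on 7 and at neither time on 85. Some later littermate list held 67.9% (61.9 to 73.5) of the dense regions, against 19.7% of all littermate 0 h hotspots. In wild-type cells 27 dense regions carried RelA at all 3 times, 1 at 0 and 3 h, 104 at 3 and 8 h and 43 at 3 h alone, and 90 were in no wild-type RelA list. Some wild-type RelA list held 66.0% (60.0 to 71.7) of the dense regions, against 3.08% of all littermate 0 h hotspots. Every dense region in a wild-type RelA list at 0 or 8 h was also in that of 3 h. Of those listed at 3 h, 68.2% (60.7 to 75.1) were also listed at 8 h in littermate cells and 74.9% (67.8 to 81.1) in wild-type cells. Both series shared 137 regions at 3 h. Shares of all littermate 0 h hotspots were not counted for each time pattern or for these 137, so these counts describe the dense regions alone. All 5 other RelA lists held 25 of the dense regions, 9.43% (6.20 to 13.6), against 0.431% of all littermate 0 h hotspots. Without asking for the short wild-type 0 h list the number was 101, against 1.76% of all.

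**Figure D2:**
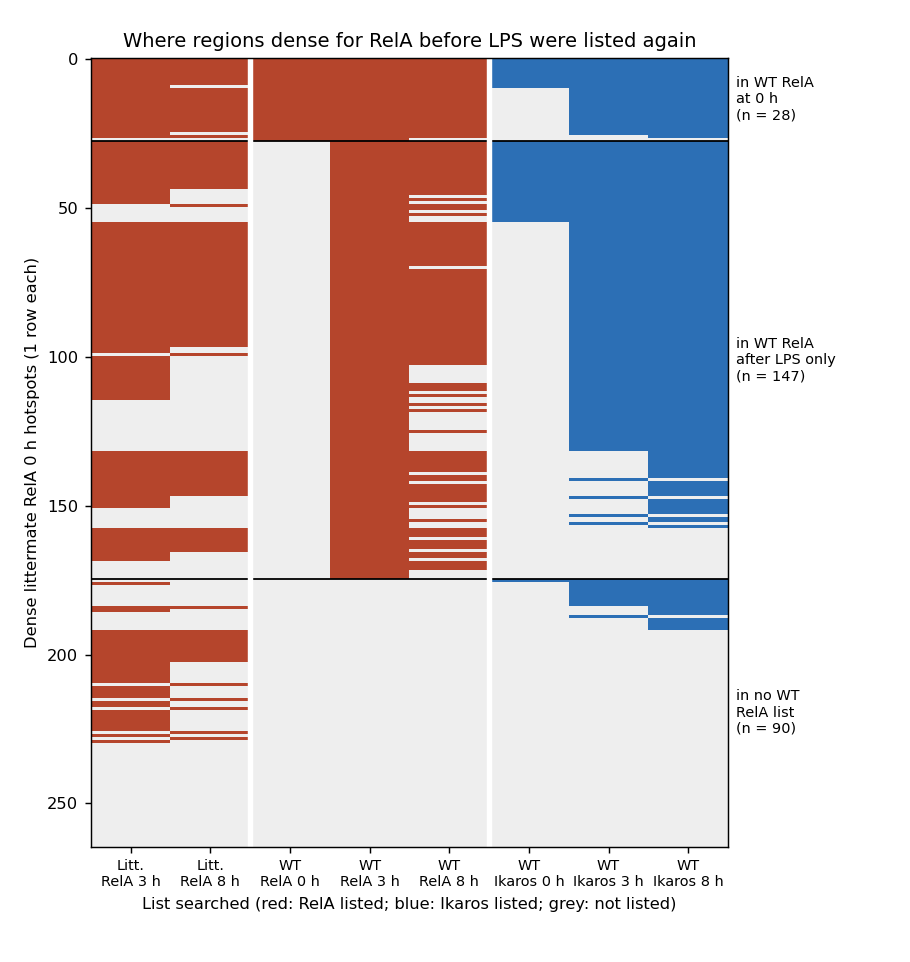
Each row is 1 of the 265 dense littermate RelA 0 h regions and each column 1 of 8 other lists, coloured where the region was listed (red RelA, blue Ikaros) and grey where not, in blocks of 28, 147 and 90 rows. Blue fills most of the upper 2 blocks at 3 and 8 h and little of the lowest, where littermate RelA is the commonest entry.

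The dense regions ranked high in the later RelA lists. In littermate cells the hotspots on them had a median MaxD of 25.5 at 3 h (lowest 4.88, highest 132), against 4.11 over the whole 3 h list. At 8 h the median was 30.1 (lowest 3.89, highest 166), against 4.56 over the list. In the densest quintile of their list lay 148 of the 173 at 3 h and 120 of the 125 at 8 h. In wild-type cells the medians were 35.4 at 3 h and 39.3 at 8 h, against 18.5 and 25.5 over those lists. There 104 of 175 were in the densest quintile at 3 h and 68 of 131 at 8 h. High rank was not particular to RelA. In the Ikaros lists 58 of 144 were in the densest quintile at 3 h and 87 of 169 at 8 h. Densities are compared only within a library, because the scale is not stated. Values of a region in several libraries, below, stand side by side and are no measure of change.

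The order of density among the dense regions was partly carried over to other RelA libraries and little to Ikaros. Spearman's rho between MaxD at littermate 0 h and MaxD in the other library was 0.62 for littermate RelA at 3 h over 173 regions and 0.48 at 8 h over 125. It was 0.57 for wild-type RelA at 0 h over 28, 0.42 at 3 h over 175 and 0.28 at 8 h over 131. For Ikaros it was 0.20 over 38 regions at 0 h, 0.02 over 144 at 3 h and 0.10 over 169 at 8 h. The points are regions of single libraries that share local mappability and base composition, and are not independent.

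The densest region of all lay on chromosome 12 at 81912694 to 81913420. Its MaxD in littermate RelA was 123, 63.2 and 58.4 at 0, 3 and 8 h. In wild-type RelA it was 23.3, 64.4 and 74.5, and in Ikaros 25.5, 77.7 and 87.8. It was thus listed in every immunoprecipitated library, as were 9 of the dense regions, 3.40% (1.56 to 6.35), against 0.155% of all littermate 0 h hotspots. Another of the 10 densest listed in every library lay on chromosome 11 at 70281157 to 70281833. Its MaxD was 69.3, 68.4 and 68.3 in littermate RelA, 25.9, 85.6 and 96.6 in wild-type RelA, and 32.1, 46.2 and 63.3 in Ikaros.

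The third of these lay on chromosome 15 at 6518901 to 6519692. Its MaxD was 58.7, 73.7 and 108 in littermate RelA, 25.0, 105 and 148 in wild-type RelA, and 17.8, 44.0 and 57.3 in Ikaros. It too was in all 8 other lists. Among the 10 densest, 5 were listed for RelA at every time in both series and for Ikaros at 3 and 8 h but not at 0 h. They lay on chromosome 16 at 49970416 to 49971112, chromosome 11 at 43198444 to 43199329, chromosome 3 at 131360936 to 131361612, chromosome 16 at 93084412 to 93085084 and chromosome 6 at 48779490 to 48780152. Their MaxD at littermate 0 h was between 55.6 and 71.0. The remaining pair of the 10 differed from these. Chromosome 15 at 100251538 to 100252217 had 64.4, 50.3 and 29.4 in littermate RelA and was absent from wild-type RelA at 0 h. Chromosome 8 at 11460776 to 11461375 had 61.3 at littermate 0 h, was in neither later littermate list, had 36.4 and 22.9 in wild-type RelA at 3 and 8 h, and was in no Ikaros list.

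Of the 25 regions in all 5 other RelA lists, the densest in wild-type cells at 0 h was the chromosome 6 region above, with 38.8. The next lay on chromosome 17 at 13202885 to 13203263 and was only moderately dense in littermate cells at 0 h. Its MaxD was 26.0, 132 and 166 in littermate RelA at 0, 3 and 8 h, and 37.6, 164 and 132 in wild-type RelA. RelA was thus listed there at every time in both series. Ikaros there was absent at 0 h and had 55.0 and 99.1 at 3 and 8 h. Another lay on chromosome 4 at 102244599 to 102245208, with 51.0, 42.6 and 33.5 in littermate RelA and 32.0, 51.9 and 51.9 in wild-type RelA.

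RelA of either series at 3 h with no RelA list at 8 h was seen on 63 dense regions, 23.8% (18.8 to 29.4), against 10.4% of all littermate 0 h hotspots. Of these, 39 were in wild-type RelA at 3 h, 14.7% (10.7 to 19.6) of the dense regions, against 0.689% of all. The densest of the 39 at littermate 0 h lay on chromosome 17 at 24308701 to 24309208, with MaxD 46.8 at littermate 0 h and 22.6 in wild-type RelA at 3 h. Next came chromosome 16 at 32170944 to 32171523 with 37.8 and 16.9, and chromosome 7 at 31895998 to 31896532 with 37.6 and 34.0. The chromosome 7 region was also in the wild-type list at 0 h, with 14.5, and was the only 1 of the 28 such regions missing from wild-type RelA at 8 h. The last of the first 5 were chromosome 11 at 114759258 to 114759848 with 34.5 and 19.0, and chromosome 11 at 76806395 to 76806818 with 30.4 and 18.4. None of these 5 was in the littermate list at 3 h. Ikaros was listed at 3 and 8 h on 4 of them, the chromosome 7 region being the exception.

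In full lists of unlike length, Ikaros was listed on most of the dense RelA regions after LPS and on few before it. Those wild-type lists held 853, 7109 and 13796 hotspots at 0, 3 and 8 h. Of the 265, 38 carried Ikaros at 0 h, 14.3% (10.4 to 19.1), against 0.689% of all littermate 0 h hotspots. At 3 h 144 did, 54.3% (48.1 to 60.4), against 2.52%, and at 8 h 169 did, 63.8% (57.7 to 69.6), against 2.95%. All 38 with Ikaros at 0 h had it at 3 and 8 h too. A further 101 had it at 3 and 8 h, 30 at 8 h alone and 5 at 3 h alone, and 91 were in no Ikaros list. Some Ikaros list held 65.7% (59.6 to 71.4) of the dense regions, against 3.07% of all littermate 0 h hotspots. Of all 5805, 40 were listed for Ikaros at 0 h and 38, 0.655%, at every time. Less dense hotspots were in the Ikaros lists in 0.0361% of cases at each time. Of the 175 dense regions with wild-type RelA, 157 carried Ikaros at some time and 134 at 3 h itself. Ikaros was common on wild-type RelA hotspots in general, since 72.7% of all wild-type RelA 3 h hotspots were in some Ikaros list and 54.0% in that of 3 h. With a reciprocal overlap of 50% the Ikaros shares at 3 and 8 h were 39.6% each, so the difference between those times is not kept under that rule. With each Ikaros list held to its 1000 highest z scores they were 17.4% and 18.1%. The 0 h list was shorter than 1000 and kept its 14.3%. Both later shares lay within the 0 h interval of 10.4 to 19.1. Most of the rise after LPS was thus not kept at near-equal list length.

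The 5 dense regions with the strongest resting Ikaros differed in how dense RelA was. The highest Ikaros z score at 0 h, 46.2, lay on chromosome 12 at 86764682 to 86765310. Its Ikaros MaxD was 89.9, 146 and 187 at 0, 3 and 8 h. RelA there had 42.6 and 20.3 at 0 and 3 h in littermate cells, with no hotspot at 8 h, and 24.7, 27.9 and 23.5 in wild-type cells. Littermate RelA at 8 h was thus the only list without it. On chromosome 7 at 108222931 to 108223337 Ikaros had 60.1, 86.8 and 62.2, and RelA was in no other list than littermate 0 h, with 16.0. On chromosome 2 at 126759900 to 126760219 Ikaros had 68.3, 71.1 and 116, and RelA 21.4 and 19.2 in littermate cells at 0 and 3 h and 29.0 in wild-type cells at 3 h. The others were strong in both factors. Chromosome 6 at 129182735 to 129183294 had Ikaros 52.2, 80.5 and 151 and littermate RelA 28.5, 46.2 and 60.6. Chromosome 13 at 20878689 to 20879317 had Ikaros 55.7, 67.9 and 90.2 and littermate RelA 54.1, 78.7 and 95.7.

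Where a hotspot was listed again, its centre lay near that of the first. The overlap of 1 bp or more that was asked for in part fixes this. No distance to expect under that rule was computed. Centres of the dense regions and of the overlapping RelA hotspots were a median of 34.0 and 38.0 bp apart in littermate cells at 3 and 8 h, and 29.5, 46.5 and 34.0 bp in wild-type cells at 0, 3 and 8 h. For Ikaros the medians were 45.2, 63.2 and 62.5 bp at 0, 3 and 8 h. The overlapping hotspots had median widths of 630 and 594 bp in littermate RelA at 3 and 8 h, where the same regions at littermate 0 h had 497 and 530 bp. In wild-type RelA they had 770 and 681 bp at 3 and 8 h, against 504 and 532 bp for the same regions. Before LPS the order was the other way, with 514 bp in wild-type RelA and 500 bp in Ikaros, against 598 and 535 bp for the same regions at littermate 0 h. Ikaros hotspots at 3 and 8 h had 647.5 and 766 bp, against 501.5 and 481 bp. Over the whole lists at 3 and 8 h, median widths were 326 and 276 bp in littermate RelA. They were 538 and 547 bp in wild-type RelA, and 533 and 565.5 bp in Ikaros. The lists were not cut alike and depth is unknown, so widths in several libraries are no measure of change.

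The dense regions were not uniform, and 3 classes of them by wild-type RelA differed in density, width and Ikaros. The 28 in the wild-type 0 h list had a median littermate MaxD of 39.6 (lowest 15.1) and a median width of 598 bp. The 147 in wild-type RelA only after LPS had medians of 26.9 and 472 bp. The 90 in no wild-type RelA list had medians of 12.8 and 388 bp, although the median z score was 14.5 both for them and for the 147. Ikaros was listed at 8 h on 27 of the 28, 96.4% (81.7 to 99.9), on 126 of the 147, 85.7% (79.0 to 90.9), and on 16 of the 90, 17.8% (10.5 to 27.3). Every region of both classes with wild-type RelA was in that list at 3 h. Of all wild-type RelA 3 h hotspots, 66.5% were in the Ikaros 8 h list, so much Ikaros is shared by wild-type RelA hotspots in general. Littermate RelA at 3 h was listed on 27 of the 28, on 110 of the 147, 74.8% (67.0 to 81.6), and on 36 of the 90, 40.0% (29.8 to 50.9).

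**Figure D3:**
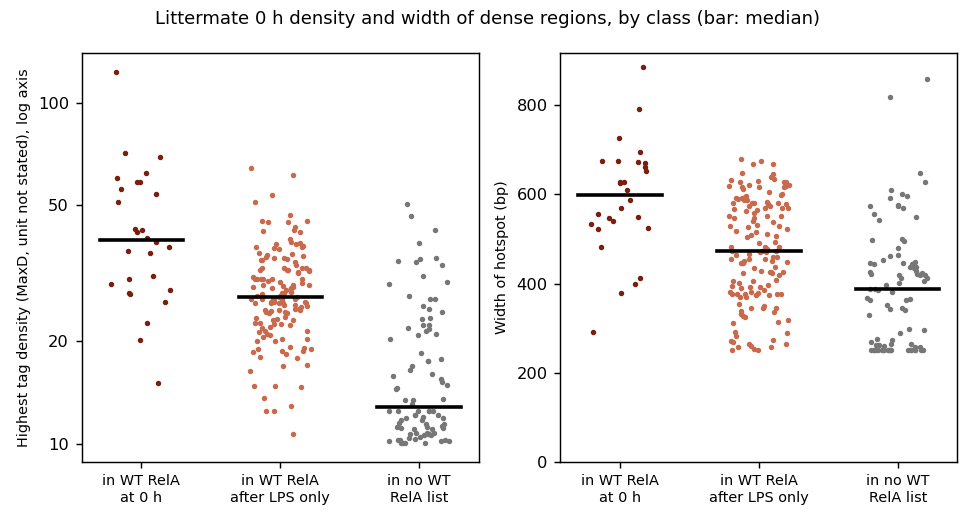
Points are the 265 dense regions by class, with littermate 0 h MaxD on a log axis (left, unit not stated) and width in bp (right), and bars mark class medians. Median MaxD is 39.6, 26.9 and 12.8 from left to right, and median width is 598, 472 and 388 bp.

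Regions denser at 0 h were mostly found again more often, though the share did not rise from each bin to the next. In wild-type RelA regions were close to never found again below a density of 12. Of the 66 hotspots with MaxD from 8 to under 10, 1 was in any wild-type RelA list, 1.52% (0.0384 to 8.16). From 10 to under 12, 1 of 37 was, 2.70% (0.0684 to 14.2), and from 12 to under 14, 4 of 17, 23.5% (6.81 to 49.9). From 18 to under 20, 10 of 11 were, 90.9% (58.7 to 99.8), but from 20 to under 25, 33 of 45, 73.3% (58.1 to 85.4). From 25 to under 30, 46 of 52 were, 88.5% (76.6 to 95.6), and from 40 up, 27 of 30, 90.0% (73.5 to 97.9). The share in any wild-type RelA list over all littermate 0 h hotspots was 3.08%. In later littermate RelA lists the shares spread less, at 34.8% (23.5 to 47.6) from 8 to under 10, 56.8% (39.5 to 72.9) from 10 to under 12 and 86.7% (69.3 to 96.2) from 40 up, against 19.7% of all. In the bins from 10 to under 25 they lay between 54.5% and 70.0%, with no steady rise.

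**Figure D4:**
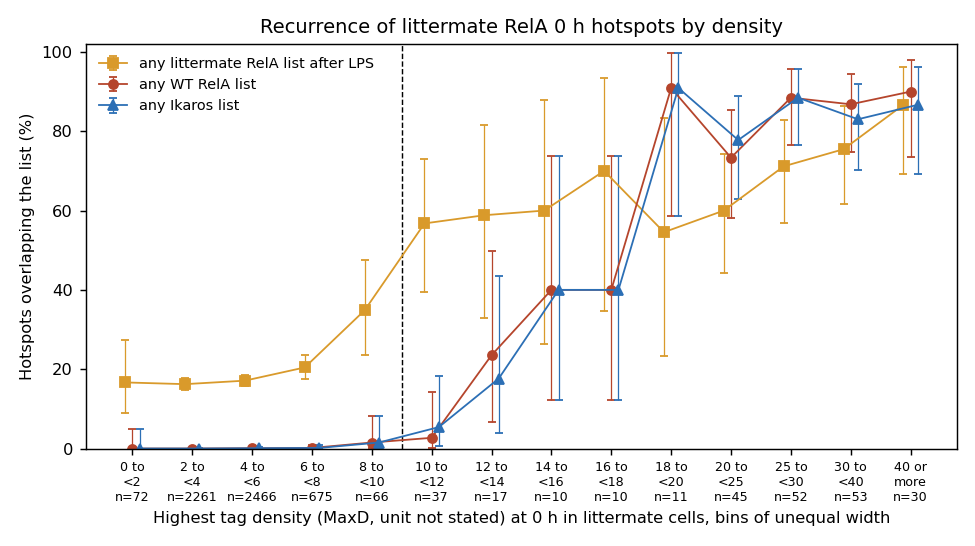
Littermate RelA 0 h hotspots are grouped by MaxD on the x axis, in bins of unequal width, and the y axis gives the percentage in any later littermate RelA, any wild-type RelA and any Ikaros list, with exact 95% intervals and a dashed line at 10. The wild-type and Ikaros shares run together, from 2.70% and 5.41% at 10 to under 12 to 88.5% each at 25 to under 30.

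Of the 265 dense regions, 35 were in none of the 8 other lists, 13.2% (9.37 to 17.9), against 79.4% of all littermate 0 h hotspots. Their median MaxD was 12.4. The densest lay on chromosome 5 at 110853094 to 110853695 with 42.4, followed by chromosome 8 at 19926495 to 19926918 with 34.8 and chromosome 8 at 19924236 to 19924599 with 34.1. Next were chromosome X at 166439646 to 166440464 with 33.5 and chromosome 3 at 8983792 to 8984213 with 25.4. The chromosome 8 regions, in the order given, lay 492 and 171 bp from an input hotspot, and the chromosome X region 309 bp. Hotspots that reached input were taken out of every list searched. One spanning such a region and its input neighbour would therefore not be seen, so absence there is less certain. Under other settings this number was between 12, with MaxD 15 or more, and 148, with as many regions chosen by z score.

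A further 41 dense regions were listed for RelA after LPS in littermate cells and in no wild-type RelA list, 15.5% (11.3 to 20.4). Over all littermate 0 h hotspots the share was 17.2%, which lies within that interval. Of the 41, 38 were in no Ikaros list either, and the like share over all littermate 0 h hotspots was not counted. On the 36 of the 41 listed at 3 h the median MaxD at that time was 9.06, against 29.1 on regions listed after LPS in both series. The densest of the 41 at 0 h lay on chromosome 4 at 3687648 to 3688257, with MaxD 46.5, 40.2 and 22.1 at 0, 3 and 8 h. Chromosome 4 at 3421418 to 3421915 had 26.5, 42.9 and 38.7. Both had a MaxD above 10 at all 3 littermate times. Chromosome 5 at 104161571 to 104162070 had 35.0 and 15.7 at 0 and 3 h, chromosome 13 at 74666168 to 74666796 had 34.4 and 22.3, and chromosome 3 at 105606468 to 105607018 had 29.3 and 14.0. The chromosome 5 region carried Ikaros at 3 and 8 h and the chromosome 3 region at 8 h. In the other direction 36 dense regions, 13.6% (9.70 to 18.3), were in wild-type RelA after LPS and in neither later littermate list, against 0.637% of all, and 29 of the 36 carried Ikaros. Another 14, 5.28% (2.92 to 8.71), were in an Ikaros list and no other RelA list, against 0.241% of all.

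The 90 dense regions in no wild-type RelA list also lay differently on the genome. Within 10 kb of an input hotspot lay 13 of the 90, 14.4% (7.92 to 23.4), but none of the 147, which allows up to 2.48%, and none of the 28, which allows up to 12.3%. Over all dense regions the share near input was 4.91% (2.64 to 8.24), against 0.686% (0.486 to 0.940) of the less dense hotspots. Within 10 kb of another dense region lay 18 of the 90, 20.0% (12.3 to 29.8), and 2 of the 147, 1.36% (0.165 to 4.83). A stretch of chromosome 8 at 19897973 to 20036525 held 12 dense regions, with MaxD between 10.1 and 34.8, together with 6 input hotspots that they did not overlap. None of the 12 was in a wild-type RelA or Ikaros list, while 7 were in littermate RelA at 3 h and 3 at 8 h. The part of input signal in these regions was not tested. The shares over all dense regions moved within their intervals when regions near input were left out or when only the densest of each run of neighbours was counted.

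By chromosome, the dense regions differed from the less dense hotspots in a few places. Chromosome X held 12 of the 265, 4.53% (2.36 to 7.78), against 515 of the 5540, 9.30% (8.54 to 10.1). Chromosome 11 held 22, 8.30% (5.28 to 12.3), against 162, 2.92% (2.50 to 3.40). Chromosome 8 also held 22, against 241, 4.35% (3.83 to 4.92), but 12 of the 22 were those of the stretch just described. Most dense regions stood alone, and 160 had no other within 1 Mb.

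To set dense resting regions beside other RelA sites, hotspots at 3 h on a dense region were compared with hotspots at 3 h elsewhere, also within quintiles of strength. Quintiles match strength only loosely. The highest ran from MaxD 27.5 to 132 in littermate cells and from z score 20.6 to 122 in wild-type cells. Strength inside a quintile was not matched. Among littermate 3 h hotspots of MaxD 10 or more, 150 lay on a dense region and 1941 did not. Their share was larger at higher 3 h density, with 8 of 419 hotspots in the lowest quintile, 1.91% (0.828 to 3.73), and 79 of 418 in the highest, 18.9% (15.3 to 23.0). In wild-type cells 175 of 4972 RelA 3 h hotspots lay on one, and 28 of the 175 were in the wild-type 0 h list itself. By z score these were 7 of 995 in the lowest quintile, 0.704% (0.283 to 1.44), and 114 of 995 in the highest, 11.5% (9.54 to 13.6).

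Resting Ikaros was listed more often on 3 h RelA hotspots that lay on a region dense before LPS in littermate cells. In littermate cells 31 of the 150 carried Ikaros 0 h, 20.7% (14.5 to 28.0), against 89 of the 1941, 4.59% (3.70 to 5.61), and 5.74% of all. The share was higher on dense resting regions in each of 5 quintiles of 3 h density, by 4.42 to 21.1 percentage points. In the highest quintile it was 27.8% (18.3 to 39.1), against 6.78% (4.35 to 10.0). Among wild-type 3 h hotspots the shares were 21.1% (15.3 to 27.9) and 4.94% (4.34 to 5.59), with 5.51% of all. They were higher on dense resting regions in 4 of 5 quintiles of z score, by -2.63 to 25.5 points. In the highest quintile they were 23.7% (16.2 to 32.6) and 7.60% (5.94 to 9.56).

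Ikaros at 3 and 8 h was not listed more often on dense resting regions in every quintile of littermate hotspots. Among littermate 3 h hotspots of MaxD 10 or more, Ikaros 3 h was listed on 72.0% (64.1 to 79.0) of those on dense resting regions and 56.8% (54.6 to 59.0) of the others, with 57.9% of all. The share was higher on dense resting regions in 3 of 5 quintiles, by -16.6 to 19.9 points, and in the highest it was 78.5% (67.8 to 86.9), against 76.7% (71.8 to 81.1). Ikaros 8 h was listed on 84.0% (77.1 to 89.5) and 76.4% (74.4 to 78.2), with 76.9% of all. It too was higher in 3 of 5 quintiles, by -35.3 to 8.56 points, and in the highest the shares were 89.9% (81.0 to 95.5) and 93.2% (90.0 to 95.7).

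Among wild-type 3 h hotspots the Ikaros shares were higher on dense resting regions in every quintile. Ikaros 3 h was listed on 77.1% (70.2 to 83.1) of those on dense resting regions and 53.1% (51.7 to 54.6) of the others, with 54.0% of all, and the gap was 5.61 to 20.7 points over the 5 quintiles. In the highest quintile the shares were 82.5% (74.2 to 88.9) and 76.8% (73.9 to 79.6). Ikaros 8 h was listed on 88.0% (82.2 to 92.4) and 65.7% (64.3 to 67.0), with 66.5% of all and a gap of 6.41 to 19.6 points. In the highest quintile these were 92.1% (85.5 to 96.3) and 85.7% (83.2 to 87.9). In the highest quintile of either series the intervals overlapped. Overlapping intervals do not show that the shares are alike.

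RelA at 8 h was also listed more often on 3 h hotspots that lay on such a region. Wild-type RelA 3 h hotspots on dense resting regions were listed at 8 h in 74.9% of cases (67.8 to 81.1), against 29.7% (28.4 to 31.0) elsewhere and 31.3% of all. In the highest quintile of z score the shares were 93.9% (87.8 to 97.5) and 74.9% (71.9 to 77.7), whose intervals did not meet. In littermate cells they were 74.0% (66.2 to 80.8) and 38.8% (36.7 to 41.1), with 41.4% of all. There the highest quintile gave 96.2% (89.3 to 99.2) and 88.2% (84.3 to 91.4), whose intervals overlapped. In each series the share was higher on dense resting regions in 4 of 5 quintiles, by -5.76 to 31.8 points in littermate cells and -3.43 to 38.1 in wild-type cells. The lower quintiles held few such hotspots, 8 and 14 in the lowest 2 of littermate cells and 7 and 11 in wild-type cells.

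**Figure D5:**
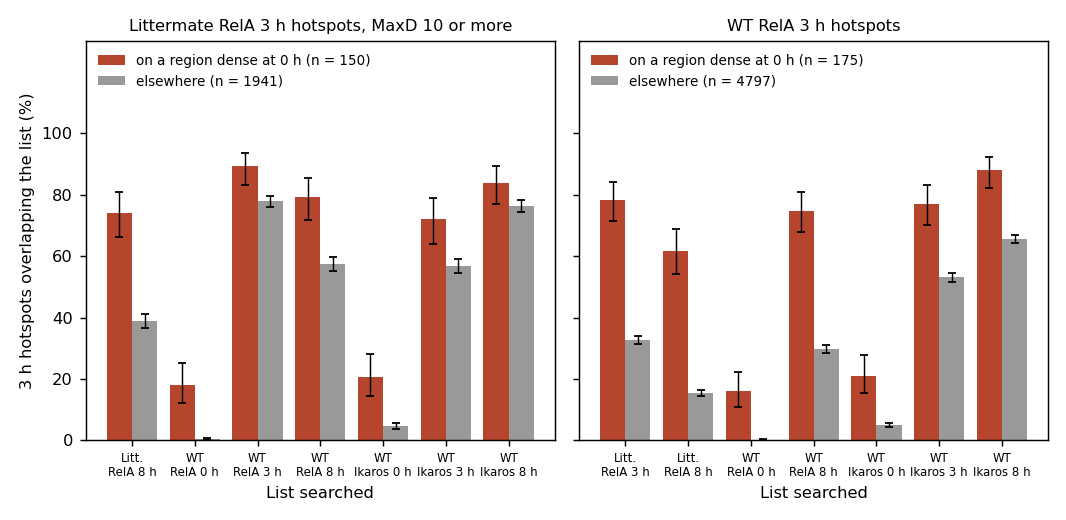
Bars give the percentage of 3 h RelA hotspots that overlapped each other list, for hotspots on a region dense at littermate 0 h (red) and elsewhere (grey), in littermate cells (left) and wild-type cells (right), with exact 95% intervals and not matched for strength. For Ikaros 0 h the bars are 20.7% and 4.59% on the left and 21.1% and 4.94% on the right.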

How the data were processed

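The submitters' processing notes name CASAVA and the mm9 build, with no further detail. For each library the authors deposited a list of hotspots. Per the file headers each hotspot carries its highest and mean tag density (a signal of unstated scale), a z score and a p-value, and the p-value was not used. No source used here names the hotspot caller, its threshold or any use of input. Depth is unknown, so no limit of detection can be given. It is not stated if starts count from 0 or 1, and coordinates are as deposited.

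From every list, hotspots that met one of wild-type input by at least 1 bp were taken out. The 2 other input samples were not analysed here. Regions that overlapped by at least 1 bp were called shared, and where several overlapped, the densest was taken. The regions named are the 10 densest, the first 5 of each pattern by density or by the list named, and those nearest the limit. Regions and lists were chosen with earlier results of these data known. To bring strength closer, 3 h hotspots were compared within quintiles of density in littermate cells and of z score in wild-type cells. The gene and promoter tables at hand are of GRCm38.p6, not mm9, so no gene or sequence was assigned. Python 3.11.15, numpy 2.4.6, pandas 2.3.3, scipy 1.17.1 and matplotlib 3.10.9 were used. On 1000 simulated regions all 300 planted overlaps were found, and counts equalled those of bedtools 2.31.1.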

Additional observations from a re-analysis of the deposited data

How the results depend on the processing

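No test is attached to these values. A value outside the 95% interval of a reported share, or a count more than 1.5 times away, was taken as moved. This held for 40 of the 105 alternatives tried on 11 results, and the other 65 stayed within. Choosing the dense regions by z score moved most. It put 34.0% and 27.5% of them in littermate RelA at 3 and 8 h, 6.42%, 15.5% and 14.3% in wild-type RelA at 0, 3 and 8 h, and 5.28%, 14.0% and 14.7% in Ikaros, with 16 in every RelA list and 148 in no other list. With MaxD 12 or more (228 regions), wild-type RelA at 3 and 8 h held 76.3% and 57.0% and Ikaros 62.7% and 73.2%, and 19 regions were in no other list. With 15 or more (205 regions) these were 81.5%, 62.0%, 67.8%, 79.0% and 12. With input hotspots kept (313 regions) the 4 shares were 57.8%, 42.8%, 47.0% and 54.6%. Under a reciprocal overlap of 50%, littermate RelA at 3 h held 58.1%, wild-type RelA at 3 and 8 h 48.3% and 42.6%, and Ikaros 39.6% at each of these times, with 56 regions in no other list. With searched hotspots of MaxD 10 or more, littermate RelA at 3 h held 56.6%, and 54 regions were in no other list. With the 1000 highest z scores of each list, littermate RelA at 3 and 8 h held 24.5% and 30.9%, wild-type RelA 43.0% and 39.2%, and Ikaros 17.4% and 18.1%, with 111 in no other list; this setting shortens the lists searched, and the cause of the other moves was not tested. Without the wild-type RelA 0 h list, 101 regions were in every RelA list. That alternative, leaving out the Ikaros lists, counting 1 region per run of neighbours and leaving out regions within 10 kb of input were chosen after seeing the data, and the last 3 moved no result, nor did widening searched hotspots by 500 bp. No paired analysis was possible because every group has a single library and no test was run, which also means that no replicate could be left out. Depth is unknown, so a region missing from a list may lie just under its threshold.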
